A study of Rattus norvegicus with 10 samples.

Results

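The genes described here build, cross-link and cut the extracellular matrix of the rat mammary gland: collagens, laminins and their basement membrane partners, small leucine-rich proteoglycans, matrix glycoproteins, lysyl oxidases, matrix metalloproteinases (MMPs), ADAMTS proteases and the tissue inhibitors of metalloproteinases (TIMPs). They were taken by symbol from the annotation of the array, which names 70 such genes at 94 probe sets, among 10411 genes named singly. Each gene is represented by its brightest probe set, by mean signal. Whole mammary gland RNA of female SD rats, taken on postnatal day 21, was measured with 1 array per sample and 5 arrays of each diet. Exposure ran from gestation day 4 until weaning. Both diets were AIN-93G, a purified feed for rodents, with casein as the protein in one group and soy protein isolate in the other. Since the labels mention pooled RNA and replicate targets, arrays may not be separate animals, and p-values measure only the spread between these arrays, part of which may be technical. The question is whether matrix genes of the prepubertal gland differ by dietary protein.

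In the mammary gland, ducts of luminal and myoepithelial cells grow through a stroma of fat and fibroblasts. Fibroblasts secrete the fibrillar collagens (types I, III and V), which lysyl oxidases cross-link into fibres and small proteoglycans such as decorin and lumican space. A basement membrane of type IV collagen, laminin, nidogen and perlecan underlies the epithelium and surrounds adipocytes, vessels and muscle fibres. MMPs cut both networks as ducts invade and branch, and TIMPs restrain them.

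Sequences upstream of the annotated gene starts are shown for 2 sets of neighbouring genes, one bright and one dim on these arrays. Col4a1 and Col4a2 encode the paired chains of type IV collagen. Their starts face away from each other, so that their promoter windows of 250 bases before to 50 after the start share 176 bases, and the 76 bases between the starts are the promoter region of both. The other set is the cluster of 6 MMP genes of the list that lie within 358 kilobases of chromosome 8. The 10 protein-coding genes of that span in the reference gene table are all MMP genes. All sequences are from RefSeq (GRCr8), 5′ to 3′. Capitals mark GGGCGG, the GC box, on either strand in the Col4a1 and Col4a2 sequence, which holds no CCAAT or TATAAA. In the 100 bases upstream of each MMP gene they mark TATAAA on either strand and TGANTCA, the letters bound by Fos and Jun proteins, which read the same on both strands.
Col4a1 and Col4a2, chr16:84885521-84885596, strand of Col4a1: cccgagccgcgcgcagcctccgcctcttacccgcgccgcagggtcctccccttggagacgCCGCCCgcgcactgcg
Mmp3, chr8:12925181-12925280, plus strand: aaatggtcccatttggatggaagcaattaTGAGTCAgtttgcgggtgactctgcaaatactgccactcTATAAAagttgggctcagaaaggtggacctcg
Mmp7, chr8:13132943-13133042, plus strand: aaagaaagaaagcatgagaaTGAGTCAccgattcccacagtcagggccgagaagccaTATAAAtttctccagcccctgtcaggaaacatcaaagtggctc
Mmp8, chr8:13008790-13008889, plus strand: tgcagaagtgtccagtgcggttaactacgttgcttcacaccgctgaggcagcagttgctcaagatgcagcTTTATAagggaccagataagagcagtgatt
Mmp10, chr8:12974607-12974706, plus strand: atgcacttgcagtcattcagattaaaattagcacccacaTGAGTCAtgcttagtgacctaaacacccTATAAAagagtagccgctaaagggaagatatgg
Mmp12, chr8:12866552-12866651, plus strand: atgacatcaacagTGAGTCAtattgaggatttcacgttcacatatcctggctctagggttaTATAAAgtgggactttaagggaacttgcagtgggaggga
Mmp13, chr8:12782729-12782828, plus strand: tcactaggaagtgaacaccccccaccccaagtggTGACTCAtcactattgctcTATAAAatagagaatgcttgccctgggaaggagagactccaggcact
Promoter windows of 300 bases were found for 53 of the 70 genes, by gene identifier. TATAAA stood in the windows of all 6 cluster genes, against 14.2% of all 33469 windows in the table, and TGANTCA in 5 of 6, the exception being Mmp8, against 7.33%. GGGCGG stood in 10 of 15 basement membrane windows and in 5 of 7 fibrillar collagen windows, against 33.1% of all. CCAAT, searched on both strands, stood in 5 of 15 and 3 of 7, against 37.5%. None of the motifs overlaps another in the sequences shown. These are matches of letters and do not show that a factor binds there.

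Only probe sets reaching a mean of 7.47 in log2 signal (177 on the linear scale) entered the test, which left 9520. Of the 70 genes, 51 passed and 19 did not. Just above the limit was Col7a1, at a mean of 7.54, and just below it Col2a1, at 7.43. Of the 19 that did not pass, 9 were MMPs and 10 structural genes, among them 3 of 10 fibrillar collagens and 5 of 13 other collagens. All 3 ADAMTS genes, all 3 TIMPs, all 8 glycoproteins and proteoglycans, both lysyl oxidases and 15 of 17 basement membrane genes passed. Of 14 MMPs only 5 did, namely Mmp2, Mmp14, Mmp17, Mmp23 and Mmp24. None of the 6 cluster genes whose sequences are shown passed. Mmp3, stromelysin, lay between 5.19 and 7.25 over the 10 arrays, Mmp12, the macrophage elastase, between 6.52 and 7.56, and Mmp8, the neutrophil collagenase, between 5.58 and 6.90. Mmp13, the rodent interstitial collagenase, lay between 3.83 and 5.83. Detection calls were not used here, so these dim signals were not set against background and their diet differences are not read.

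**Figure D1:**
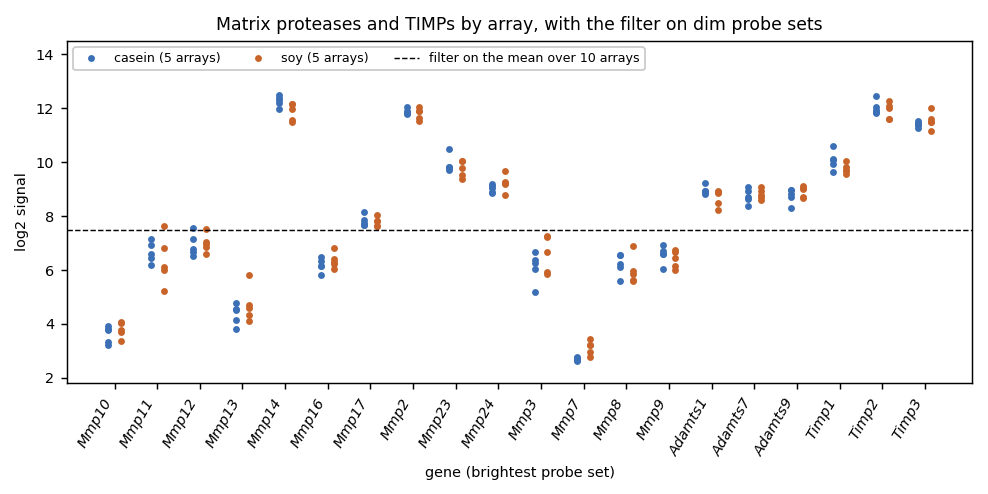
Log2 signal of the 14 MMPs, 3 ADAMTS proteases and 3 TIMPs on each of 5 casein and 5 soy arrays (1 point per array). The dashed line is the filter of 7.47 on the mean over all arrays, which 5 MMPs and all ADAMTS and TIMP genes passed.

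No matrix gene passed the test between the diets. Among the 51 tested genes, limma gave 0 with an adjusted p under 0.05 (Benjamini-Hochberg over all probe sets), as it did for all 9520 probe sets (0%), and the smallest adjusted p of a matrix gene was 0.98. At an unadjusted p under 0.05, 4 genes were lower in soy, 7.84% of those tested, where 2.24% of all probe sets were, and 0 were higher, where 2.31% were. The 4 were Lum, Mmp14, Col12a1 and Col18a1. With 1 array left out, between 1 (1.96%, without casein 18) and 6 (11.8%, without soy 149) genes were lower at this p. The shares of all probe sets lower in these 2 settings were 1.45% and 2.96%. Without casein 7, soy 157 or soy 159 the count was 2 each, where 1.79%, 1.71% and 2.42% of all probe sets were lower. The arrays of the diets overlapped for all 51 genes, where 0.798% of all probe sets did not overlap. Of the 51 differences, 20 were positive and 31 negative, where 47.3% of all probe sets were positive. The split was 12 to 39 under quantile normalization and 16 to 35 under median centring, but 26 to 25 without casein 6 and 32 to 19 when muscle and lymph node signals entered the model. The median of the 51 was -0.051, beside -0.01 over all probe sets. In 36 of the 51 genes the 95% confidence interval of the difference lay wholly within 1.5-fold in either direction, and in 50 within 2-fold. The exception was Tnc.

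**Figure D2:**
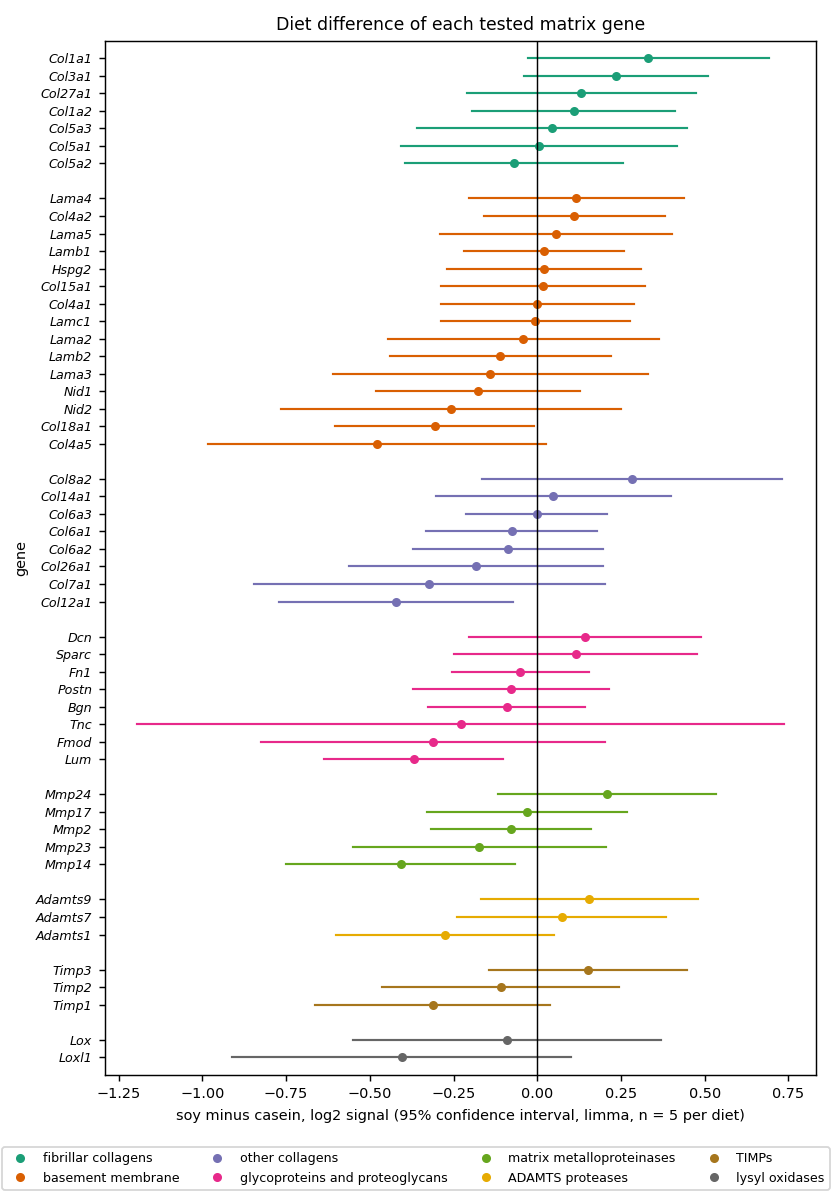
Soy minus casein difference in log2 signal for the 51 tested genes by class, with the 95% confidence interval from limma (n = 5 arrays per diet). Most intervals cross 0, and those of Lum, Mmp14, Col12a1 and Col18a1 lie below it before adjustment over all probe sets.

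Lum encodes lumican, a small proteoglycan that spaces collagen fibrils, and had the smallest p of the list. Its log2 signal was 12.22, 12.39, 11.93, 12.56 and 12.18 in casein 10, 18, 20, 6 and 7, and 11.85, 11.94, 11.66, 11.95 and 12.04 in soy 147, 149, 155, 157 and 159. Only casein 20 lay within the soy range, and the other 4 casein arrays lay above every soy array. The difference was -0.37 ± 0.12 (SE, n = 5 per diet), a signal 1.29-fold higher in casein (limma, unadjusted p = 0.011, adjusted p = 0.98). Without any 1 array it lay between -0.45 and -0.29, with an unadjusted p under 0.05 in all 10 settings. The same held in 7 of 10 for Col12a1, 6 of 10 for Mmp14 and 3 of 10 for Col18a1. With the log2 actin 3' to 5' ratio in the model, 0 matrix genes, Lum included, were lower at that p, where 2.2% of all probe sets were. That ratio was 0.29, 0.57, 0.63, 0.41 and 0.38 in casein 10, 18, 20, 6 and 7. In soy 147, 149, 155, 157 and 159 it was 0.51, 0.5, 0.65, 0.56 and 0.62. Casein 10, 6 and 7 thus lay below every soy array, and the part of this ratio in the diet differences was not tested. Other proteoglycans of the lumican family had values on both sides. Decorin (Dcn) was at 0.14 ± 0.16 (SE), or -0.04 under quantile normalization, biglycan (Bgn) at -0.09 ± 0.11 (SE) and fibromodulin (Fmod) at -0.31 ± 0.24 (SE). Bgn was at -0.02 without soy 157 and Fmod at -0.12 without soy 159.

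Mmp14 encodes the membrane-anchored MMP that cuts fibrillar collagen at the cell surface and activates Mmp2. It was at 12.21, 12.38, 11.97, 12.30 and 12.50 in casein 10, 18, 20, 6 and 7. In soy 147, 149, 155, 157 and 159 it was at 12.15, 12.16, 11.96, 11.47 and 11.56. Again casein 20 was the only casein array within the soy range, while soy 157 and soy 159 stood below the rest. The difference was -0.41 ± 0.16 (SE; limma, unadjusted p = 0.024, adjusted p = 0.98), and -0.31 without soy 157. Mmp2, the gelatinase that Mmp14 activates, was at -0.08 ± 0.11 (SE), with an interval from -0.32 to 0.16, and at -0.14 to -0.01 with 1 array left out. The mean of its probe sets was at 0.14, but it takes in a probe set below the filter, at 0.347. Mmp23 was at -0.17, Mmp17 at -0.03 and Mmp24 at 0.21, while another tested probe set of Mmp24 was at -0.21. Mmp23 was at -0.04 without casein 6 and Mmp24 at 0.096 without soy 149.

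Col12a1, a collagen that decorates fibril surfaces, was at 8.96, 9.22, 8.50, 8.86 and 9.0 in casein 10, 18, 20, 6 and 7. In soy 147, 149, 155, 157 and 159 it was at 8.62, 8.74, 8.67, 8.21 and 8.18. Here too casein 20 alone of the casein arrays fell within the soy range. The difference was -0.42 ± 0.16 (SE; limma, unadjusted p = 0.022, adjusted p = 0.98). Its unadjusted p was 0.059 without casein 18. Col18a1, whose end fragment is endostatin, was at 10.55, 10.39, 10.26, 10.15 and 10.72 in the casein arrays, in the same order, and at 9.97, 10.49, 10.07, 9.94 and 10.08 in the soy arrays. Soy 149 was the only soy array within the casein range. The difference was -0.31 ± 0.14 (SE; limma, unadjusted p = 0.045, adjusted p = 0.98), but another probe set of Col18a1 was at -0.05 and the mean of both at -0.18. Over all alternatives in which each was tested, the adjusted p of these 4 genes ran from 0.51 to 1.

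**Figure D3:**
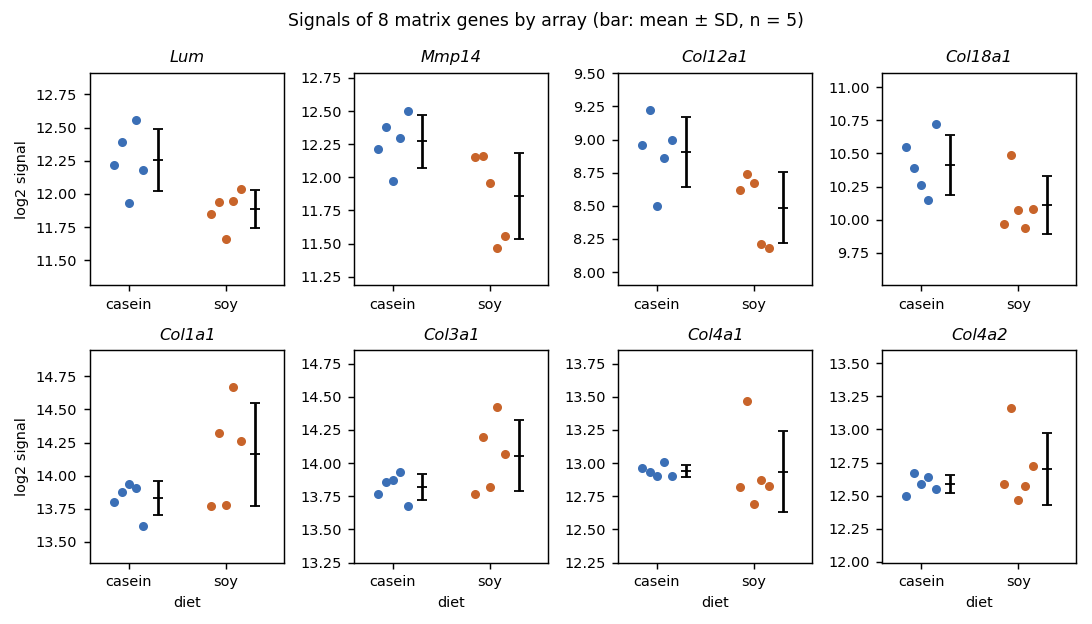
Log2 signal of 8 matrix genes on each array (blue casein, orange soy, 1 point per array, in the order casein 10, 18, 20, 6, 7 and soy 147, 149, 155, 157, 159), with the mean ± SD (n = 5 per diet). Each panel spans the same log2 range, and the diets overlap in all of them.

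Fibrillar collagens were tested at 7 of 10 genes, and 6 of the 7 differences were positive, with a median of 0.109. Under quantile normalization 2 of 7 were positive and the median was -0.006, and under median centring 5 of 7 with a median of 0.087. Without soy 149 the median was 0.055 with 4 of 7 positive, and without soy 159 4 of 7 were positive. Col1a1 and Col3a1, chains of the type I and type III collagen that make up most of fibrous stroma, gave the largest values of the class under the deposited scaling. Col1a1 was at 13.80, 13.88, 13.94, 13.91 and 13.62 in casein 10, 18, 20, 6 and 7, and at 13.77, 14.32, 13.78, 14.67 and 14.26 in soy 147, 149, 155, 157 and 159. Soy 149, 157 and 159 lay above every casein array, while soy 147 and 155 lay within the casein range. The difference was 0.33 ± 0.16 (SE; limma, unadjusted p = 0.067, adjusted p = 0.98), or 0.21 without soy 157. Another tested probe set of Col1a1 was at 0.206, and the mean of both at 0.269. Col3a1, at 13.77, 13.86, 13.87, 13.93 and 13.68 in casein and 13.77, 14.20, 13.82, 14.42 and 14.07 in soy, had the same 3 soy arrays on top. Its difference was 0.23 ± 0.13 (SE; limma, adjusted p = 0.98), or 0.14 without soy 157. Col1a2 was at 0.11 ± 0.14 (SE).

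The sizes for type I and III collagen moved with the scaling of bright probe sets. Of the 100 brightest probe sets of the array, which include Col1a1, Col1a2, Col3a1, Dcn, Postn and Sparc, 96 were higher in soy under the deposited scaling, with a median difference of 0.207. Their median deviation from each probe set's own mean was 0.411 in soy 157, 0.158 in soy 159 and 0.12 in soy 149. It was between -0.224 and 0.036 in the other 7 arrays. After quantile normalization 48 of the 100 were higher in soy and the median difference was -0.002. There Col1a1 stood at 0.028, Col3a1 at -0.003, Col1a2 at -0.097 and Sparc at -0.10. Which scaling is nearer to the RNA amounts was not tested.

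Type V collagen, which nucleates and limits the width of type I fibrils, gave differences near 0. They were 0.005 ± 0.19 (SE) for Col5a1, -0.07 ± 0.15 (SE) for Col5a2 and 0.04 ± 0.18 (SE) for Col5a3. In soy 157, where Col1a1, Col1a2, Col3a1 and Col27a1 were each at their highest, Col5a1 (11.62) and Col5a2 (12.40) were at their lowest of the 10 arrays. This holds for the brightest probe sets only. The other tested probe set of Col5a1 was at 10.27 in soy 157 and lowest in soy 155 (10.18). That of Col5a2 was at 12.55 in soy 157 and lowest in casein 7 (12.45), and that of Col1a2 was highest in soy 149 (13.88). Col5a1 was highest in casein 6, at 12.55, where the remaining casein arrays spanned 11.73 to 11.93. Probe sets disagreed in sign for both Col5a1 and Col5a2.

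Basement membrane genes were tested at 15 of 17, of which 6 differences were positive and 9 negative, with a median of -0.006. The type IV chains Col4a1 and Col4a2 had the same highest and lowest arrays, but not the same order among the casein arrays. Col4a1 was at 12.96, 12.93, 12.90, 13.01 and 12.90 in casein 10, 18, 20, 6 and 7, and at 12.82, 13.47, 12.69, 12.87 and 12.83 in soy 147, 149, 155, 157 and 159. Col4a2 was at 12.50, 12.67, 12.59, 12.64 and 12.55 in casein and at 12.59, 13.16, 12.47, 12.57 and 12.72 in soy. Both were highest in soy 149 and lowest in soy 155, apart from which the arrays lay close together. The differences were -0.001 ± 0.13 (SE) and 0.11 ± 0.12 (SE), with intervals from -0.29 to 0.29 and from -0.16 to 0.38. Without soy 149 they were -0.13 and -0.003. The log2 difference between the Col4a1 and Col4a2 probe sets had an SD of 0.094 over the 10 arrays, against 0.205 and 0.196 for the genes themselves.

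Col4a5, a chain of the type IV network of specialised membranes, had the most negative difference of the class, at -0.48 ± 0.23 (SE; limma, unadjusted p = 0.061, adjusted p = 0.98). It rested in part on soy 157, at 8.17 against 8.99 to 9.79 elsewhere, and was -0.25 without that array. The nidogens, which link laminin to type IV collagen, were at -0.18 ± 0.14 (SE) for Nid1 and -0.26 ± 0.23 (SE) for Nid2. Another tested probe set of Nid1 was at -0.318. With 1 array left out Nid1 lay between -0.30 (without soy 149) and -0.11 (without soy 157), and Nid2 between -0.40 (without soy 149) and -0.13 (without casein 18). Perlecan (Hspg2), the heparan sulphate proteoglycan of the membrane, was at 0.02 ± 0.13 (SE), and at -0.06 without soy 149.

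By their brightest probe sets, laminin chains showed differences between -0.14 and 0.12. Another tested probe set of Lamc1 was at -0.235. Lama4, Lamb1 and Lamc1, the chains of the laminin of vessels and fat, were at 0.12 ± 0.15, 0.02 ± 0.11 and -0.01 ± 0.13 (SE), and Lamb2 was at -0.11 ± 0.15 (SE). All 4 were highest in soy 149. Signs were not stable in this class: Lama4, Lama5, Lamb1 and Hspg2 were all negative without casein 6 and soy 149, and Lamb1 and Hspg2 also under median centring. Lama3 and Lama5, chains of epithelial laminins, had other profiles, which differed from each other in soy 149. Lama3 was highest in casein 7 (8.39), soy 147 (8.37) and casein 10 (8.31) and lowest in soy 159 (7.41) and soy 149 (7.54). Lama5 was highest in soy 147 (9.65), followed by soy 149 (9.34), and lowest in casein 6 (8.72) and soy 159 (8.93). The mean log2 signal of 5 tested luminal epithelial markers, of 6 on the array, was 10.77 in casein 7 and 9.82 in soy 147. It was lowest in casein 6 (6.39), soy 159 (6.42) and soy 149 (7.45), and its part in the laminin values was not tested. In whole glands, fewer cells of a type and less RNA per cell cannot be told apart.

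Set against each other, fibrillar and basement membrane genes went together in some arrays and apart in others. For each array the deviation of every gene from its own mean over the 10 arrays was averaged within a class. For the 7 fibrillar collagens this was -0.081, -0.046, -0.108, 0.117 and -0.163 in casein 10, 18, 20, 6 and 7, and -0.186, 0.333, -0.183, 0.171 and 0.146 in soy 147, 149, 155, 157 and 159. The 15 basement membrane genes were at 0.011, 0.089, -0.033, 0.071 and 0.058 in casein and at -0.078, 0.284, -0.156, -0.221 and -0.025 in soy. Both classes were high in soy 149 and low in soy 147 and soy 155. In soy 157 they separated, with fibrillar collagens above and basement membrane genes below their means, by 0.392. The classes also lay on opposite sides of 0 in casein 10, casein 18, casein 7 and soy 159. Pooled within diets, the SD between arrays was 0.18 for fibrillar collagens, 0.142 for basement membrane genes and 0.154 for the difference between them. Casein arrays had a fibrillar minus basement membrane value of -0.095 ± 0.097 (SD, n = 5), and soy arrays of 0.095 ± 0.195 (SD, n = 5). Casein 6, at 0.046, lay above soy 147 (-0.108) and soy 155 (-0.027), so the diets overlapped. The difference between the class medians was 0.115. It was 0.036 under quantile normalization, 0.031 when muscle and lymph node signals entered the model, and 0.084 (without casein 7) to 0.209 (without soy 147) with 1 array left out.

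**Figure D4:**
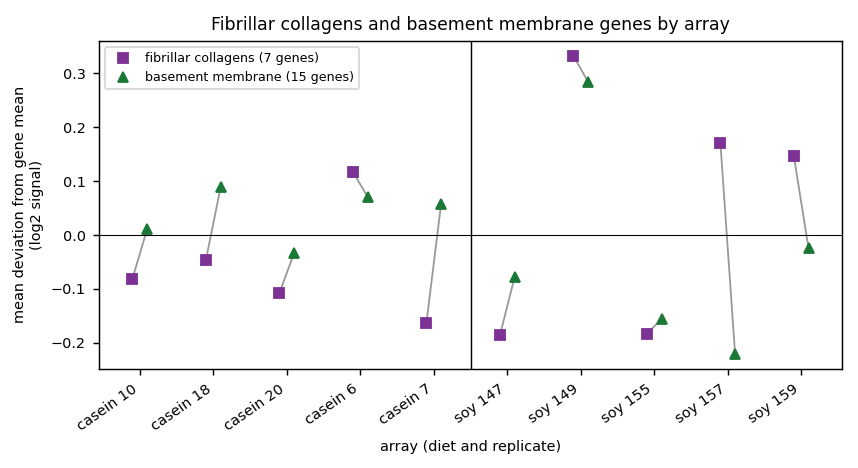
Mean deviation of log2 signal from each gene's mean over 10 arrays, for 7 fibrillar collagens (squares) and 15 basement membrane genes (triangles), by array. The grey lines join the classes of 1 array, and the gap is widest in soy 157 (0.392) and next in casein 7 (-0.221).

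The diet difference was smaller than the residual SD within diets for 42 of 51 tested genes. Its median size was 0.115, beside a median residual SD of 0.25, in log2 signal. The SD was higher among soy than among casein arrays for 36 of 51 genes (70.6%), beside 60.9% of all probe sets. Soy 149 was the highest array for 19 genes (37.3%), where it was highest for 11.3% of all probe sets. Soy 157 was the lowest array for 17 genes (33.3%) and soy 155 for 14 (27.5%), where they were lowest for 15.8% and 9.78% of all. Cell type markers also differed between arrays, each list in its own set of arrays. Skeletal muscle markers (8 tested of 9 on the array) averaged 6.26 to 13.73 in casein and 6.19 to 14.05 in soy, with the highest values in soy 157, casein 6, soy 149 and soy 147. Lymph node markers (6 of 6) were lowest in soy 149 (6.5) and casein 6 (6.53), against 9.33 to 10.31 elsewhere. Adipocyte markers (6 of 6) were highest in soy 149, at 12.12, against 11.18 to 11.76. Fibroblast markers (5 of 5) averaged lowest in soy 155, at 10.36, against 10.62 to 10.89. Pdgfrb and Thy1 were lowest there, while Pdgfra, Vim and S100a4 were lowest in other arrays. No marker of these lists was at the signal floor of 1 in any array, and the part of these cell types in the matrix values was not tested. Without casein 6 and soy 149, 6 matrix genes (11.8%) were lower and 0 higher at an unadjusted p under 0.05. Of all probe sets, 4.15% were lower and 3.06% higher there. Without casein 6, soy 147, soy 149 and soy 157 the counts of matrix genes were 7 (13.7%) and 0, where 4.93% of all were lower and 3.88% higher.

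**Figure D5:**
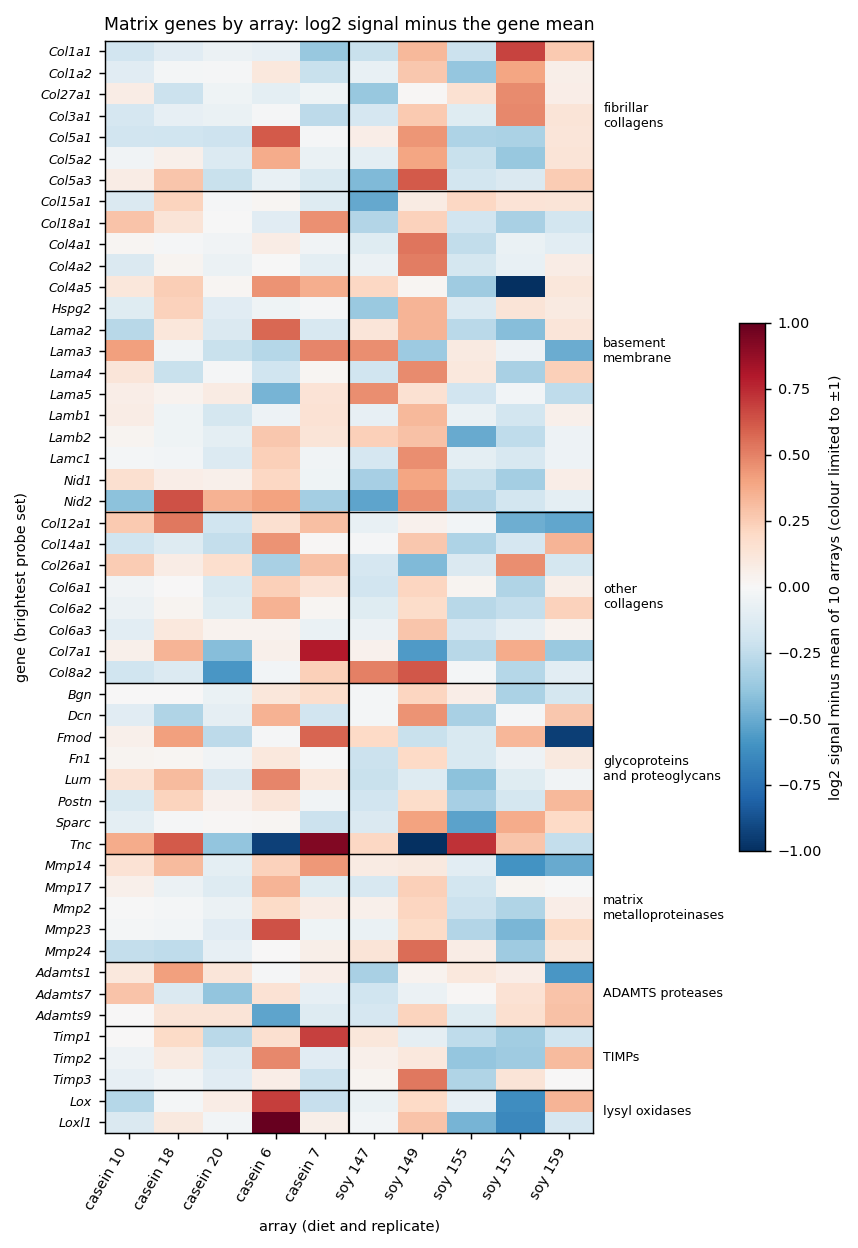
Log2 signal minus the gene's mean over 10 arrays for the 51 tested genes, in rows by class, on 5 casein and 5 soy arrays (red higher, blue lower, colour limited to ±1). Soy 149 is high across most collagens and basement membrane genes, and soy 157 is high for Col1a1 and Col3a1 but low for Col4a5, Lox and Loxl1.

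Chains that assemble with each other differed in how closely they went together over the arrays. The log2 difference between the type I chains Col1a1 and Col1a2 had an SD of 0.168 over the 10 arrays, where the genes had SDs of 0.322 and 0.226. Col1a1 and Col3a1, of different collagens, gave 0.103. For Col6a1 and Col6a2, chains of the beaded microfibril collagen, it was 0.135 (genes 0.178 and 0.205), and for Col5a1 and Col5a2 0.148 (genes 0.317 and 0.242). Col6a1 and Col6a3, of the same collagen, gave 0.165, more than Col6a3 alone (0.126). Decorin and lumican, proteoglycans of the same family, gave 0.343, more than either gene (0.269 and 0.268). These SDs describe 10 arrays that also share scaling and tissue makeup. Other collagens tested at 8 of 13 genes had 2 positive and 6 negative differences. Col6a1, Col6a2 and Col6a3 were at -0.08, -0.09 and -0.002. Col6a3, with an interval from -0.21 to 0.21, varied little, over a range of 0.439, while the anchoring fibril collagen Col7a1 was at -0.32 ± 0.24 (SE) and Col8a2, of vessel and corneal membranes, at 0.28 ± 0.20 (SE).

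None of the matrix glycoproteins passed the test. Fibronectin (Fn1) was at -0.05 ± 0.09 (SE) and had the narrowest range of all tested members, 0.414. Periostin (Postn) was at -0.08 ± 0.13 (SE), and Sparc, a collagen-binding protein, at 0.12 ± 0.17 (SE). Tenascin C (Tnc), a matrix protein of developing and healing tissue, had the widest range, 2.467, its lowest values being 6.09 (soy 149) and 6.70 (casein 6), while the remaining 8 arrays spanned 7.24 to 8.56. Its difference was -0.23 ± 0.44 (SE), and 0.13 without soy 149. Soy 149 and casein 6 are also the arrays with the lowest lymph node markers. They had low luminal markers (7.45 and 6.39) and high muscle markers (13.54 and 13.73) as well. The part of these tissues in the Tnc values was not tested.

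Of the cross-linking enzymes and TIMPs, 4 of 5 had a negative difference and none passed the test. Loxl1, which cross-links elastin, was at 10.08, 10.32, 10.19, 11.25 and 10.28 in casein 10, 18, 20, 6 and 7 and at 10.19, 10.51, 9.76, 9.58 and 10.05 in soy 147, 149, 155, 157 and 159. The difference of -0.40 ± 0.23 (SE) rested in part on casein 6, which lay above all other arrays, and was -0.20 without it. Lox, the collagen cross-linking enzyme, was at -0.09 ± 0.21 (SE), and at 0.07 without casein 6. Timp1, an inducible inhibitor of most MMPs, was at -0.31 ± 0.16 (SE; limma, unadjusted p = 0.076, adjusted p = 0.98), and at -0.18 without casein 7. Timp2, which also takes part in activating Mmp2, was at -0.11 ± 0.16 (SE). Timp3, which binds the matrix itself, was at 0.15 ± 0.14 (SE), and its other tested probe sets were at 0.019 and -0.016. The mean of all its probe sets was at -0.05, but it takes in a probe set below the filter, at -0.37. The aggrecan-cutting protease Adamts1 was at -0.27 ± 0.15 (SE), Adamts9 at 0.15 ± 0.15 (SE) and Adamts7 at 0.07 ± 0.14 (SE). Across the list, 15 genes had over 1 tested probe set, and these disagreed in sign for 6: Col14a1, Col5a1, Col5a2, Col6a2, Mmp24 and Timp3.

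Genes outside the list that make, bind or regulate matrix were on the array for 49 of 57 names. Of 46 tested, 17 differences were positive and 29 negative, with a median of -0.042, and limma called 0 (adjusted p under 0.05). At an unadjusted p under 0.05, 2 were higher (4.35%) and 1 lower (2.17%) in soy, beside 2.31% and 2.24% of all probe sets. Plod2, the lysyl hydroxylase of collagen telopeptides, was at 0.38 ± 0.16 (SE). Itgb4, the integrin of hemidesmosomes, was at 0.42 ± 0.19 (SE). Bmp1, which removes the end propeptide of fibrillar procollagens, was at -0.33 ± 0.13 (SE). By group, 4 of 11 collagen synthesis and processing genes, 2 of 10 elastic fibre genes, 3 of 10 receptors, 4 of 9 regulators and 4 of 6 protease control genes had a positive difference.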

How the data were processed

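RNA of whole mammary glands was hybridised to 1-colour arrays, 5 per diet. The deposited values are intensity signals, 1 per probe set, for which the submitters' processing notes name MAS5, whose version is not given in the sources used. The 2% trimmed mean of each array is 500.1, so the authors' values share 1 scaling. Signals were floored at 1 and log2-transformed with no further normalization. Array number limits the precision.

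Control probe sets (57 of 15923) were left out. Genes were named from the platform annotation: 12783 probe sets name 1 gene, 312 several and 2771 none. All 94 probe sets of the list were matched to the RefSeq gene table, which changed 0 symbols. Probe sets with a mean log2 signal under the 40th percentile were not tested. The diets were compared with limma 3.58.1 (lmFit and eBayes with trend, R 4.3.3) on all 9520 remaining probe sets, with Benjamini-Hochberg adjustment and a threshold of 0.05. The script was tested on simulated data. Members and gene lists were chosen with earlier results of these data known. Genes with an unadjusted p under 0.05 were named with values, as were up to 4 of smallest p in each class. A list of core matrix genes was added where tested, for 42 in all. These were followed through 22 alternatives, each gene only where it passed the filter of that setting, which gave 916 values. Of other pathway genes, those with an unadjusted p under 0.05 were named. Col14a1, Col5a3, Col6a1, Col6a2, Col6a3, Lama3 and Mmp17 fall outside this rule and were named after their values were seen, as were the dim MMPs of the cluster.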

Additional observations from a re-analysis of the deposited data

Results flagged for a closer look

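In 102 groups of 5 arrays (42 genes, the mean deviation of each of 8 classes and the fibrillar minus basement membrane difference, in each diet), 8 values stood far from the other 4, by a gap over 0.71 of the group's range, where chance gives about 1 in 20 groups. All 8 lay in casein 6 or soy 149. In soy 149, Col4a1 was at 13.47 (nearest other soy array 12.87), Lamc1 at 12.43 (11.92) and Col18a1 at 10.49 (10.08). In casein 6, Col5a1 was at 12.55 (nearest other casein array 11.93), Loxl1 at 11.25 (10.32) and Mmp23 at 10.47 (9.82), all above the rest, and Lama5 was at 8.72 (9.22), below it. The mean deviation of the lysyl oxidases in casein 6 was 0.862, against 0.038 in the next casein array. These are also the arrays with the lowest lymph node markers (6.53 and 6.5) and 2 of the 4 with the highest muscle markers (13.73 and 13.54), whose part in these values was not tested.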

How the results depend on the processing

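No paired analysis was possible because the diets share no replicate number. Under all 22 alternatives limma gave 0 matrix genes with an adjusted p under 0.05. The median differences of fibrillar collagens and of basement membrane genes moved by less than the spread between replicates under each. That spread, 0.18 and 0.142, is larger than the medians themselves (0.109 and -0.006), so it does not show that their signs hold. The fibrillar median was -0.006 under quantile normalization. The basement membrane median was 0.047 with muscle and lymph node covariates and 0.028 with the actin 3' to 5' ratio in the model. The next counts are at an unadjusted p under 0.05, with the share of all probe sets in brackets. Genes higher in soy were 0 as reported (2.31%), 2 of 70 with no filter (3.21%) and 1 with array weights (3.49%). They were 2 when muscle and lymph node signals entered the model (3.41%). When the log2 ratio of actin probe sets at both ends of the transcript did (the actin covariate), 1 was higher (2.08%). With 1 array left out, 0 to 2 were higher (1.41% to 3.33%). Lower genes were 4 as reported (2.24%), 2 with probe sets averaged by gene (2.21%) and 0 with the actin covariate (2.2%). They were 7 without casein 6, soy 147, soy 149 and soy 157 (4.93%), and 1 to 6 with 1 array left out (1.45% to 4.07%). Col12a1, 1 of the 4, was not tested with probe sets averaged, since its mean with a dim probe set fell below the filter. Of 42 genes, 18 kept their sign under every alternative in which they were tested, which for some genes was not all 22. The cause of the other signs was not tested. Quantile normalization gave the other sign for Col1a2 (-0.0967), Col3a1 (-0.0031), Col5a1 (-0.0342), Dcn (-0.0354) and Sparc (-0.101). Median centring gave the other sign for Col5a1 (-0.016), Hspg2 (-0.00251) and Lamb1 (-0.000289). Weighting the arrays gave the other sign for Col5a2 (0.00318), Lama5 (-0.0811), Lamb1 (-0.00231), Lox (0.121), Postn (0.0021) and Timp2 (0.0354). Averaging probe sets by gene gave the other sign for Col5a1 (-0.0584), Col5a2 (0.0109), Mmp2 (0.135) and Timp3 (-0.0539). For Mmp2 and Timp3 the average takes in a probe set below the filter. Muscle and lymph node covariates gave the other sign for Col4a1 (0.0467), Col5a2 (0.0775), Fn1 (0.0181), Lama5 (-0.00877), Lamc1 (0.0668), Lox (0.135), Mmp2 (0.000179), Nid1 (0.000703), Postn (0.0804) and Timp2 (0.016). The actin covariate gave the other sign for Col4a1 (0.0762), Hspg2 (-0.00182), Lamb2 (0.0282) and Lamc1 (0.0652). Leaving out casein 6 and soy 149 gave the other sign for Hspg2 (-0.0711), Lama4 (-0.0206), Lama5 (-0.0843), Lamb1 (-0.0697) and Lox (0.0085). Leaving out casein 6, soy 147, soy 149 and soy 157 gave the other sign for Col1a2 (-0.0681), Col5a2 (0.00395), Hspg2 (-0.0252), Lama5 (-0.307), Lamb1 (-0.00495), Lox (0.245), Mmp23 (0.00165), Sparc (-0.0897), Timp2 (0.0149) and Timp3 (-0.037). With 1 array left out, 12 genes had differences on both sides of 0: Adamts7 -0.0163 to 0.154, Col4a1 -0.133 to 0.0604, Col4a2 -0.00297 to 0.17, Col5a1 -0.104 to 0.159, Col5a2 -0.175 to 0.0161, Hspg2 -0.0634 to 0.114, Lama5 -0.0532 to 0.127, Lamb1 -0.0591 to 0.0694, Lamb2 -0.199 to 0.00143, Lamc1 -0.122 to 0.0539, Lox -0.188 to 0.0703 and Tnc -0.492 to 0.128.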

Other observations

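Among the markers of other cell types, nerve and Schwann cell genes had the most one-sided differences outside muscle: all 3 tested of 3 on the array were higher in soy. Mal, a myelin membrane protein, was at 0.71 ± 0.27 (SE; limma, unadjusted p = 0.024, adjusted p = 0.98), Mbp, the myelin basic protein, at 0.61 ± 0.29 (SE) and Pmp22 at 0.23 ± 0.19 (SE). Averaged, the list peaked at 11.68 in soy 149 and lay between 9.96 and 10.81 elsewhere. All 8 tested muscle markers also had positive differences, with a median of 2.364, and none passed the test.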
